A study of Macaca mulatta with 449 samples.

Results

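The hindbrain of the rhesus macaque was compared with its diencephalon. For each of 8 animals, the gene counts of the medulla oblongata (MO) and the pons (PON) were added to give a hindbrain sample, and those of the thalamus (THA) and the hypothalamus (HTHA) were added to give a diencephalon sample. The comparison thus used 32 of the 408 RNA libraries in the count table, which covers 51 regions, out of 449 samples in the series. The animals were healthy and untreated, from 1 source, 4 males and 4 females, and 2 of each sex were young (3.2 to 5.0 years) and 2 mid-aged (9.8 to 10.0 years). One anatomist took a small piece of each region, so that a library stands for that piece and not for the whole region. RNA was sequenced after removal of ribosomal RNA, and the deposited values are reads counted per gene.

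The medulla and the pons hold the cranial nerve and reticular nuclei, the serotonin and noradrenaline cell groups, the relay neurons of the pontine nuclei that project to the cerebellum, and the long ascending and descending tracts. The thalamus relays sensory and motor signals to the cortex through glutamatergic neurons under GABAergic control. The hypothalamus makes the peptide hormones and arousal peptides that govern the pituitary, feeding and sleep. During development, HOX genes are expressed in the hindbrain and spinal cord and are silent in the forebrain, and the diencephalon is set out by factors such as OTX2, SIX3 and FEZF1.

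The 32 libraries held 9057534 to 14435755 counts (median 11356645). No 2 libraries were identical. One animal stood apart, and its values stand beside the results they touch. In animal 6, a mid-aged animal, the mean log2(CPM + 1) of 18 matched markers of cortex and telencephalon was 6.20 in HTHA, against 3.10 to 3.42 in HTHA of the other 7 animals. In its MO library the same markers stood at 2.24, against 3.24 to 3.91, while 11 matched fibroblast and meningeal markers stood at 5.78, against 3.28 to 3.83. That MO library also had the lowest level of the neurofilament list, 6.62 against 8.67 to 9.54, and the highest of the myelin list, 10.10 against 8.76 to 9.54. CPM are read counts scaled by library size after TMM normalization. Counts of genes and list members called on the sums were also taken without animal 6 and are given where they differed. The part of these libraries in the results was not tested.

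**Figure D1:**
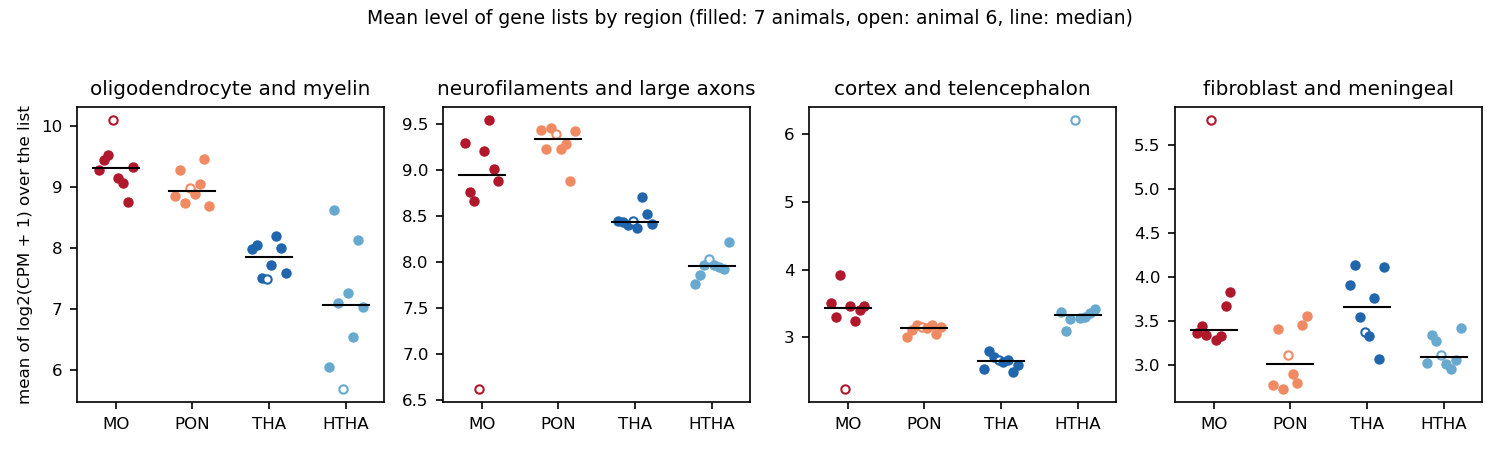
Mean level of 4 gene lists in each of the 32 libraries, as the mean of log2(CPM + 1) over the list genes (y axis) by region (x axis), with filled points for 7 animals, open points for animal 6 and a line at the median of 8. The myelin list was higher in each of the 16 MO and PON libraries than in any of the 16 THA and HTHA libraries, and animal 6 lies outside the other animals for the cortex list in HTHA and for the fibroblast list in MO.

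Of 15709 genes tested with edgeR's quasi-likelihood test, with the animal as block, 710 (4.52%) were higher in the hindbrain and 1030 (6.56%) were higher in the diencephalon at FDR < 0.05 and a fold above 2. The log2FC is hindbrain over diencephalon throughout, and its median over all genes tested was 0.0066. Without animal 6, 637 genes were higher in the hindbrain and 984 in the diencephalon. All 8 animals differed in the same direction for 625 of the 710 genes and for 892 of the 1030. The 8 hindbrain sums lay above all 8 diencephalon sums for 384 of the 710 genes, against 717 of all genes tested (4.56%), and lay below them for 595 of the 1030, against 988 of all genes tested (6.29%). The difference exceeded 16-fold for 34 genes higher in the hindbrain and for 56 genes higher in the diencephalon. No symbol was at hand for 142 and 211 of the genes called. The counts of list members given below are to be read against the 4.52% and 6.56% of all genes. In bulk tissue a lower value can come from fewer cells of a type or from less RNA per cell, and these cannot be told apart.

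A sum can be carried by 1 of its 2 regions, so the 4 region pairs were also tested in a fit of the 32 separate libraries. Of 15388 genes, 191 (1.24%) were higher in both MO and PON than in both THA and HTHA, and 193 (1.25%) were lower in both, at the same threshold in each of the 4 pairs. Without animal 6 these counts were 195 and 144. All 191 of the first and 192 of the second were also called on the sums. Most genes called on the sums therefore did not separate every hindbrain region from every diencephalic one. MO exceeded both diencephalic regions for 572 genes, and for 278 of these PON exceeded neither. PON exceeded both for 450 genes, and for 134 of these MO exceeded neither. On the other side, THA exceeded MO and PON for 707 genes (HTHA exceeding neither for 346), and HTHA for 756 genes (THA exceeding neither for 406). MO against THA and PON against HTHA share no library. Their calls coincided for 355 genes higher in the hindbrain region, of 1312 (8.53%) and 937 (6.09%), and for 354 lower ones, of 1029 (6.69%) and 1638 (10.6%), whereas 258 and 105 genes were called in opposite directions. For MO against HTHA and PON against THA 255 higher genes coincided, of 909 (5.91%) and 839 (5.45%), and 357 lower ones, of 1016 (6.6%) and 1281 (8.32%), and 33 and 80 were called in opposite directions.

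**Figure D2:**
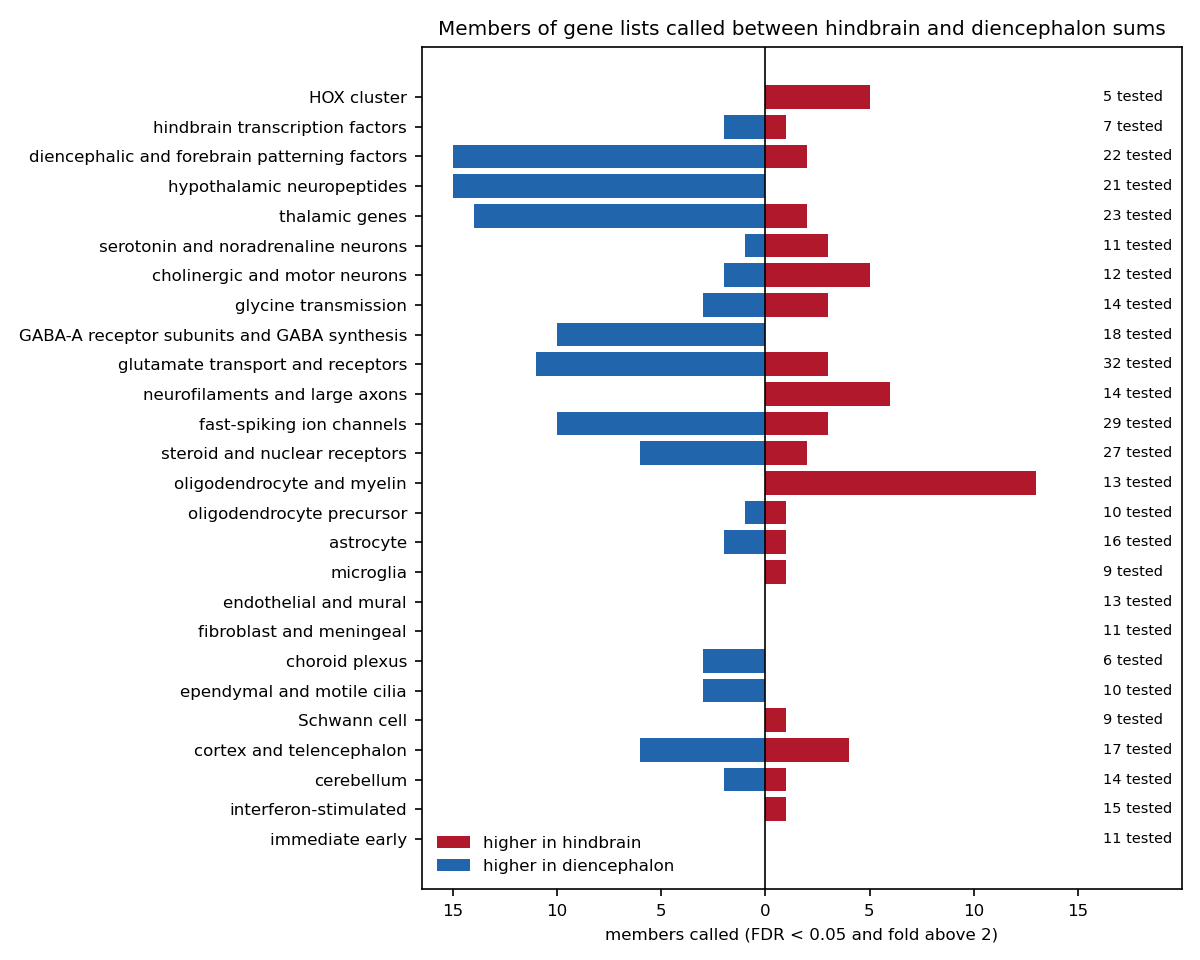
Number of members of each gene list called between the hindbrain and diencephalon sums (x axis, hindbrain to the right in red, diencephalon to the left in blue; FDR < 0.05 and fold above 2) with the number tested at the right. All 13 tested myelin genes were higher in the hindbrain, and so were the 5 HOX genes that passed the filter on low counts, 4 of them with the diencephalon at the floor, whereas 15 of 21 tested peptide genes and 10 of 18 GABA genes were higher in the diencephalon.

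Several HOX genes were read in MO and PON and hardly or not at all in THA and HTHA. Of 16 HOX genes matched by symbol, 5 passed the filter on low counts. In 4 of the 5 the diencephalon was at the floor, so that they passed through the hindbrain alone and had to differ, and their count is no support for a direction of the family. The 5 were higher in each of the 4 region pairs. Of the other 11, 8 had at most 4 counts in any sum and were not tested by either filter. With a looser filter, a count above 1 in at least 3 samples, *HOXA9* was tested and not called (log2FC -0.34), with medians of 0.167 CPM in MO and 0.242 CPM in HTHA. *HOXB8* and *HOXD8* were called with it and were read almost only in MO. Their highest values were 92 and 1.55 CPM in MO (medians 0.238 and 0.595 CPM) and 0 and 0.117 CPM in PON. *HOXA4* ranged over 11.6 to 17.2 CPM (median 13.6) in the hindbrain sums, and no diencephalon sum held more than 3 counts, the floor set for a sample. It was thus at least 109-fold higher (log2FC = 10.31 ± 0.27, FDR = 2.7e-09), with medians of 13.5 CPM in MO and 14.5 CPM in PON. *HOXC10* ranged over 3.88 to 8.86 CPM (median 6.47) and was at least 49.3-fold higher (log2FC = 7.60 ± 0.43, FDR = 3.0e-07). Its level was above that of MO in every PON library, 6.05 to 12 CPM against 1.26 to 5.88 CPM. *HOXA7* stood the other way round, at a median of 8.42 CPM in MO and 1.02 CPM in PON, and was at least 37.1-fold higher on the sums (log2FC = 7.41 ± 0.34, FDR = 9.6e-08). *HOXC6* ranged over 0.555 to 1.97 CPM (median 1.40) and was at least 10.2-fold higher (log2FC = 6.90 ± 0.47, FDR = 1.2e-06). The fitted log2FC of a gene at the floor depends on the prior count and is no bound, and that of *HOXA4* was 11.30 without animal 7 and that of *HOXC6* 7.98 without animal 10. In the RefSeq annotation of another assembly, T2T-MMU8v2.0, *HOXA4* and *HOXA7* overlap *HOXA3*, and *HOXC6* and *HOXC10* overlap *ATP5MC2*. Without a stated strand and overlap option of the counting their reads cannot be assigned with certainty.

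Other hindbrain factors showed no common direction. The summed CPM of this list had a median of 60.0 in MO, 39.6 in THA, 23.4 in HTHA and 19.3 in PON. Of 13 matched members 7 passed the filter on low counts (median log2FC -0.35). *NKX6-1*, a factor of ventral hindbrain progenitors, was higher in the hindbrain (log2FC = 1.52 ± 0.31, FDR = 0.0023, 7 of 8 animals), *GATA3* (log2FC = -1.91 ± 0.42, FDR = 0.0033) and *HMX3* (log2FC = -2.23 ± 0.58, FDR = 0.009; -2.85 without animal 3) were higher in the diencephalon, and 4 were not called. With equal weights of the 4 regions both calls were lost (-0.39 and -1.25). The looser filter admitted the other 6 members and called 5 of them higher in the hindbrain, where it called 4.82% of all genes higher and 6.76% lower. These 5 passed it mainly through their MO reads, and their direction is no support. *PAX2*, *PAX8* and *TFAP2B*, factors of inhibitory and noradrenergic lineages, had highest values of 18.4, 31 and 14 CPM in MO and of 0.288, 0.234 and 0.171 CPM in PON. *LMX1B*, needed for serotonin neurons, reached 10.9 CPM in 1 MO library with a median of 0.501 CPM. *POU4F1* reached 40.4 CPM in MO with a median of 2.04 CPM. These genes differed widely between the MO pieces of different animals.

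Most tested members of the forebrain patterning list were higher in the diencephalon. Of 22 tested members 15 were higher in the diencephalon, 2 in the hindbrain and 5 were not called, and the median log2FC was -3.35 (-3.23 with the 4 genes at the floor set to their bound). Those 4 passed the filter through 1 side only. *FEZF1*, a forebrain zinc finger factor, had no read in any MO, PON or THA library and 9.09 to 87.4 CPM in HTHA (median 33.3). On the sums it was at least 148-fold higher in the diencephalon (log2FC = -11.80 ± 0.27, FDR = 3.0e-05), and with equal weights of the 4 regions it was not called (-5.87). *SIM1*, needed for oxytocin and vasopressin neurons, was likewise read only in HTHA, at 1.15 to 5.77 CPM, and was at least 14.1-fold higher (log2FC = -8.45 ± 0.48, FDR = 4.4e-04), and was not called with equal weights (-4.20). *SIX3* ranged over 1.39 to 4.81 CPM (median 2.65) in the diencephalon with the hindbrain at the floor, at least 20.3-fold (fitted log2FC -7.97, and -9.03 without animal 4), and *OTP* over 2.41 to 11.5 CPM (median 6.11) against 0 to 1.01 CPM (median 0.216) (log2FC -4.39, and -1.93 without a call at equal weights). *FEZF2* (log2FC -5.15) and *ISL1* (-5.30, and -6.10 without animal 8) were also carried by HTHA.

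A second set of patterning factors was carried by THA. *TCF7L2*, a Wnt effector that marks thalamic neurons, ranged over 235 to 354 CPM in THA and over 5.44 to 9.29 CPM in HTHA. The 2 sides did not overlap, with 118 to 182 CPM (median 139.9) against 3.21 to 5.41 CPM (median 4.39) (log2FC = -5.05 ± 0.08, FDR = 5.2e-11). *LHX9* reached a median of 50.7 CPM in THA and 6.68 CPM in HTHA, with none in PON and 0.542 CPM in MO (log2FC = -5.87 ± 0.44, FDR = 2.5e-06), and it was lower in the hindbrain in all 4 pairs. *OTX2*, which sets the boundary of forebrain and midbrain against the hindbrain, had 26.5 to 58.8 CPM (median 35.8) in the diencephalon and 0.832 to 4.07 CPM (median 2.20) in the hindbrain (log2FC = -4.07 ± 0.22, FDR = 2.1e-07). *GBX2* (-2.64) and *RORA* (-1.50) were higher in THA as well. The 2 members higher in the hindbrain were the Iroquois genes *IRX1* and *IRX2*. *IRX2* had 20.5 to 31.5 CPM (median 23.1) in the hindbrain and 1.24 to 4.44 CPM (median 2.70) in the diencephalon (log2FC = 3.12 ± 0.16, FDR = 1.8e-07), with a median of 40.6 CPM in PON and 6.98 CPM in MO. *IRX1* followed the same order (log2FC = 2.73 ± 0.13, FDR = 1.0e-07). *IRX4*, outside the list, ranged over 2.90 to 6.80 CPM (median 4.06) with the diencephalon at the floor, at least 33.1-fold, and its PON median was 7.67 CPM against 0.440 CPM in MO.

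**Figure D3:**
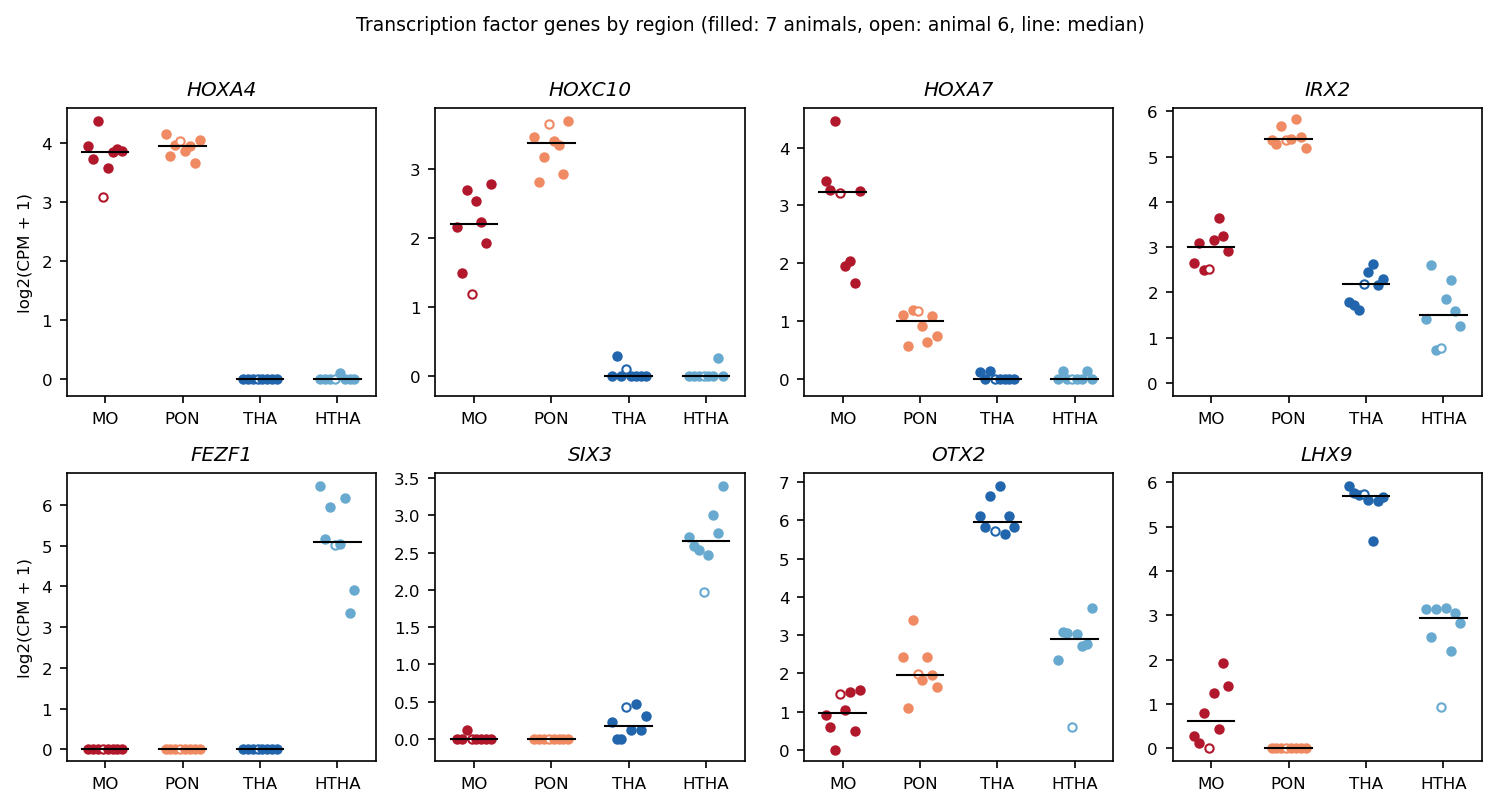
Levels of 8 transcription factor genes as log2(CPM + 1) (y axis) in MO, PON, THA and HTHA (x axis), 1 point per library, open for animal 6, with a line at the median of 8 animals. HOXA4 and HOXC10 were read in all MO and PON libraries and at or near 0 in THA and HTHA, FEZF1 and SIX3 almost only in HTHA, and OTX2 and LHX9 were highest in THA.

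Most hypothalamic peptide genes were higher in the diencephalon. Of 21 tested members 15 were higher in the diencephalon, none in the hindbrain and 6 were not called (median log2FC -2.03). Without animal 6, 14 were called, *TAC1* being at -0.94. *OXT* (oxytocin) ranged from 181 to 1825 CPM in HTHA (median 812), while no MO, PON or THA library exceeded 0.825 CPM (log2FC = -11.63 ± 0.35, FDR = 6.0e-09 on the sums). *HCRT*, the orexin precursor, ranged from 2.75 to 299 CPM in HTHA and did not exceed 0.322 CPM elsewhere (log2FC = -9.10 ± 0.40, FDR = 7.6e-08). *PMCH*, the precursor of melanin-concentrating hormone, ranged from 1.70 to 1679 CPM in HTHA (log2FC = -8.95 ± 0.73, FDR = 4.2e-06). Its sums overlapped, at 0.995 to 934 CPM in the diencephalon and 0.200 to 1.10 CPM in the hindbrain, though all 8 animals differed in the same direction. The lowest HTHA values of *HCRT* and *PMCH* both came from animal 11, where oxytocin stood at 689 CPM. *PARPBP* followed *PMCH* library by library, with a median of 554 CPM in HTHA against 541 CPM (log2FC = -8.27 ± 0.94, FDR = 4.1e-05). The 2 genes overlap in the RefSeq annotation, and their reads cannot be told apart here. *NPVF*, an RFamide peptide, had 0.728 to 74.6 CPM in HTHA (log2FC = -6.20 ± 0.49, FDR = 3.4e-06), with -7.01 without animal 4.

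Several peptides of this list were not particular to the hypothalamus. *NTS* (neurotensin) was led by THA, at 476 to 866 CPM, with a median of 39 CPM in HTHA, 13.9 CPM in MO and 0.177 CPM in PON (log2FC = -5.58 ± 0.40, FDR = 1.9e-06), and was lower in the hindbrain in all 4 pairs, as was *TRH* (log2FC = -2.73 ± 0.44, FDR = 4.5e-04). *SST* (somatostatin) had a median of 224 CPM in HTHA and 53.9 CPM in MO but 6.66 CPM in THA and 0.114 CPM in PON. Its log2FC of -2.22 on the sums rested on the hypothalamus, since against THA alone it was 1.94. *TAC1* (substance P) and *PDYN* (prodynorphin) were likewise highest in HTHA and next in MO, with medians of 91.5 and 109.9 CPM in HTHA, 51.9 and 15.4 CPM in MO, 8.10 and 7.14 CPM in THA, and 0.112 and 2.08 CPM in PON. The call of *TAC1* (log2FC = -1.28) was lost without animals 2, 3, 4 or 6 (-1.11, -1.16, -1.32 and -0.94). *CARTPT* was highest in HTHA (113 CPM) and next in THA (39.1 CPM). *CRH* was not called by edgeR on the sums (log2FC = -2.03, FDR = 0.064), but was called with DESeq2 (-2.10), with equal weights of regions (-2.62) and without animal 2 or animal 3 (-2.52 and -2.54). It ranged from 12.2 to 1449 CPM in MO, with 1006 and 1449 CPM in animals 2 and 3 and at most 153 CPM in the other 6, and from 305 to 454 CPM in THA.

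**Figure D4:**
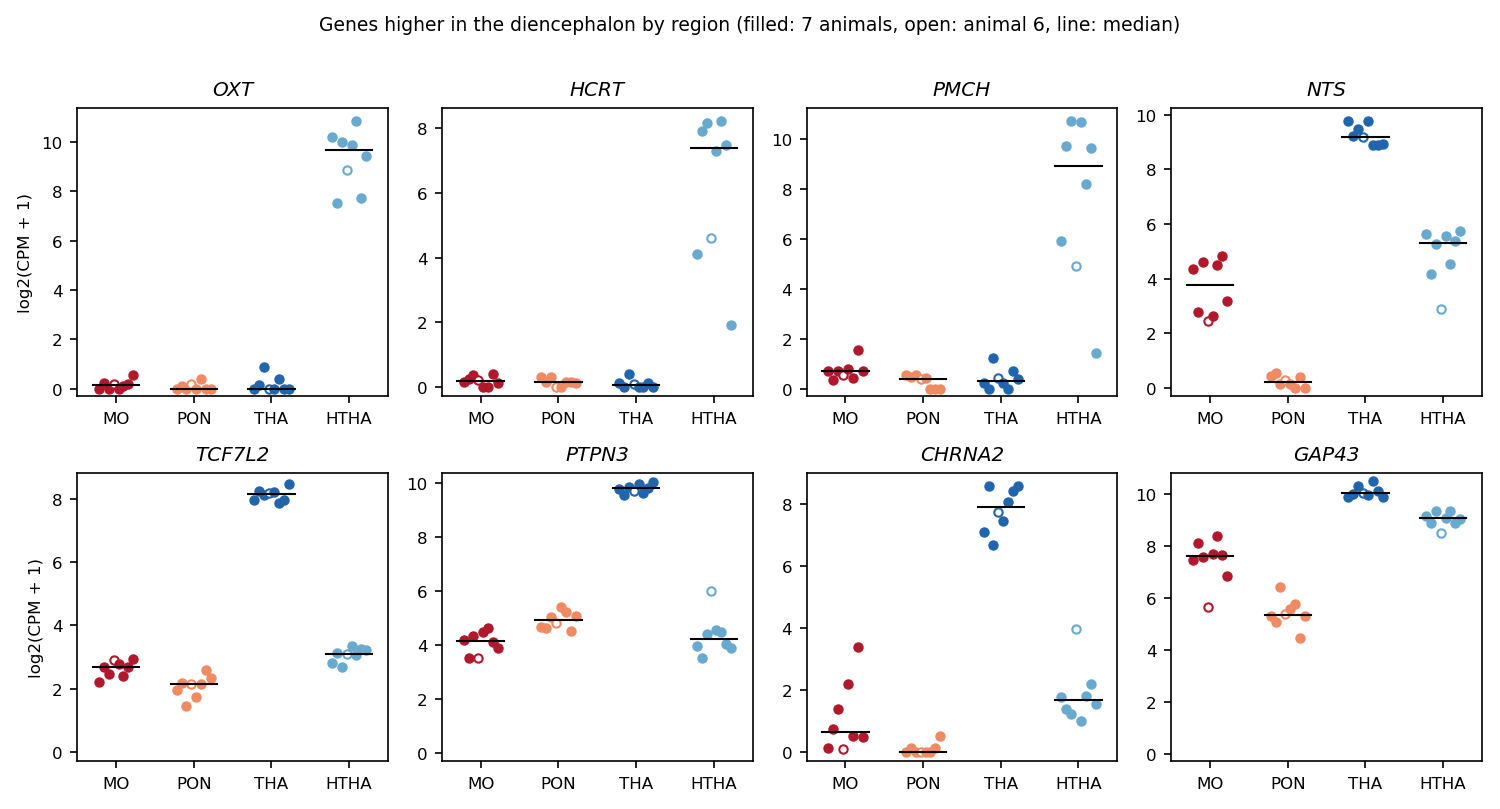
Levels of 8 genes higher in the diencephalon as log2(CPM + 1) (y axis) in MO, PON, THA and HTHA (x axis), 1 point per library, open for animal 6, with a line at the median of 8 animals. OXT, HCRT and PMCH were high in HTHA only, TCF7L2, PTPN3 and CHRNA2 were highest in THA, and GAP43 was higher in THA and HTHA than in MO and PON.

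Genes known from the thalamus were mostly higher in the diencephalon too. Of 23 tested members 14 were higher in the diencephalon, 2 (*SLC17A7* and *NEFH*) in the hindbrain and 7 were not called (median log2FC -1.43). *PTPN3*, a tyrosine phosphatase, had 757 to 1059 CPM in THA, while its medians were 18 CPM in HTHA, 16.8 CPM in MO and 29.7 CPM in PON (log2FC = -4.32 ± 0.13, FDR = 6.0e-09). *NTNG1*, a netrin of thalamocortical axons, had 384 to 596 CPM (median 467) in the diencephalon and 33.7 to 66.9 CPM (median 54.4) in the hindbrain (log2FC = -3.17 ± 0.10, FDR = 6.0e-09). It was carried by THA and was not called against the hypothalamus alone (-0.03). *CACNA1G*, the T-type calcium channel of thalamic burst firing, had 171 to 298 CPM (median 219) against 6.31 to 85.3 CPM (median 31.5) (log2FC = -2.67 ± 0.42, FDR = 3.7e-04). Among genes outside the list, *CHRNA2*, a nicotinic receptor subunit, ranged from 102 to 382 CPM in THA with a median of 0.567 CPM in MO and no reads in 5 of 8 PON libraries (log2FC = -7.10 ± 0.55, FDR = 3.2e-06; -7.77 without animal 10). *CASQ2*, a calcium store protein, ranged from 70.7 to 134 CPM in THA and did not exceed 2.29 CPM in any other library (log2FC = -6.94 ± 0.30, FDR = 7.5e-08; -7.58 without animal 6). *MS4A8*, with a THA median of 62.3 CPM and an HTHA median of 5.82 CPM, was lower in the hindbrain in all 4 pairs (log2FC = -7.11 ± 0.38, FDR = 2.1e-07), and its relative *MS4A18* and *RD3L* were at the floor there, at least 10.1-fold and 14.7-fold. The fitted log2FC of *MS4A18* ran from -8.18 without animal 3 to -6.34 without animal 6. *MS4A8* and *MS4A18* belong to 1 gene family, and *RD3L* overlaps *TDRD9* in the RefSeq annotation.

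Some genes higher in the hindbrain were highest in the pons. *SLC17A7*, the vesicular glutamate transporter VGLUT1, ranged from 475 to 678 CPM in PON. It ranged from 2.69 to 143 CPM in MO and from 0.417 to 3.03 CPM in THA. In HTHA the median was 2.52 CPM, but animal 6 had 481 CPM, and its MO library had the lowest value of MO. Over the sums the log2FC was 6.79 ± 0.85 (FDR = 7.6e-05), and without animal 6 it was 7.39. *NEUROD2*, a factor of excitatory neurons, had 38.6 to 50.8 CPM in PON and medians of 9.30, 0.0421 and 0.812 CPM in MO, THA and HTHA (log2FC = 5.12 ± 0.67, FDR = 1.1e-04). Its HTHA level in animal 6 was 31.8 CPM, and without this animal the log2FC was 6.03. *SLC17A7* and *NEUROD2* were both higher in all 4 pairs, with log2FC of 3.90 and 2.36 for MO against HTHA. The cortex list that holds both genes had 4 members higher in the hindbrain, 6 higher in the diencephalon and 7 not called. Without animal 6, whose HTHA library held these markers, 5 were higher in the hindbrain and 4 in the diencephalon. *FAT2*, a protocadherin of cerebellar granule cells, had 29.1 to 62.7 CPM in PON and at most 6.20 CPM in MO (log2FC = 3.57 ± 0.18, FDR = 1.4e-07). It was the only 1 of 14 tested members of the cerebellum list that was higher in the hindbrain, 2 being higher in the diencephalon.

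Further genes had a higher median in PON than in MO. *ADGRD2*, an adhesion receptor, had 8.37 to 40.7 CPM (median 23.2) in the hindbrain and 0.0398 to 1.77 CPM (median 0.310) in the diencephalon (log2FC = 5.49 ± 0.36, FDR = 9.3e-07) and was higher in all 4 pairs. *OPRPN*, the gene of an opiorphin precursor, had 2.89 to 25.1 CPM in PON and at most 1.38 CPM in MO, with the diencephalon at the floor (at least 46.8-fold, log2FC = 8.49 ± 0.35, FDR = 5.4e-08; 9.08 without animal 7). *SFTPA1*, a surfactant protein, and *MSMB*, a secreted microseminoprotein, were low, with PON medians of 2.04 and 2.32 CPM, but were at the floor in all 8 diencephalon sums (at least 9.95-fold and 9.77-fold). Of 27 tested nuclear receptors, 2 were higher in the hindbrain and 6 in the diencephalon (5 without animal 6, *RARB* being at -0.97, and at -0.99, -0.93 and -0.99 without animals 4, 7 and 11). The 2 were *ESRRG*, an orphan receptor, with 15.8 to 63.9 CPM (median 44.1) against 3.19 to 9.31 CPM (median 5.69) (log2FC = 2.78 ± 0.24, FDR = 5.4e-06), and *RXRG*, a retinoid receptor, with 48.5 to 102 CPM (median 69.1) against 9.76 to 30.7 CPM (median 17.8) (log2FC = 1.89 ± 0.12, FDR = 8.4e-07). *NR2F1* and *NR2F2*, the COUP-TF receptors, were higher in the diencephalon (log2FC = -1.62 ± 0.11, FDR = 1.1e-06 and log2FC = -1.79 ± 0.12, FDR = 8.8e-07).

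Glycine transmission was split between its members. Of 14 tested genes 3 were higher in the hindbrain, 3 in the diencephalon and 8 were not called (median log2FC -0.06). *SLC6A5*, the glycine transporter GlyT2 of glycinergic neurons, ranged from 0.632 to 89.3 CPM in MO, with a median of 0.256 CPM in PON (log2FC = 5.91 ± 0.59, FDR = 1.6e-05). *GLRA1*, the adult receptor subunit, had 12.2 to 40.8 CPM (median 24.8) in the hindbrain and 1.43 to 6.15 CPM (median 3.11) in the diencephalon (log2FC = 3.14 ± 0.13, FDR = 6.4e-08) and was higher in all 4 pairs. *SLC6A9*, the glial transporter GlyT1, had 144 to 248 CPM (median 168) against 67.6 to 124 CPM (median 73.3) (log2FC = 1.11 ± 0.11, FDR = 1.5e-05). It was not called with the pons alone (0.77) or against the thalamus alone (0.98). *GLRA2* and *GLRA3*, the other alpha subunits, were lower in the hindbrain in all 4 pairs. *GLRA2* had 10.1 to 38.5 CPM (median 25.6) in the hindbrain and 47.9 to 99.7 CPM (median 74.4) in the diencephalon (log2FC = -1.63 ± 0.17, FDR = 2.3e-05). *GLRA3* had 0.0925 to 3.09 CPM (median 1.88) against 7.47 to 20.6 CPM (median 12.7) (log2FC = -3.25 ± 0.51, FDR = 3.9e-04). The sums of the 2 sides did not overlap for any of these 3 subunits, with *GLRA1* in 1 direction and *GLRA2* and *GLRA3* in the other.

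Of 18 tested GABA genes 10 were higher in the diencephalon, none was higher in the hindbrain and 8 were not called (median log2FC -1.15). Without animal 6, 9 were called, *GABRB1* being at -0.97. *GAD1* and *GAD2* make GABA. *GAD1* ranged over 13.9 to 115 CPM (median 64.2) in the hindbrain and 218 to 334 CPM (median 283) in the diencephalon (log2FC = -2.59 ± 0.39, FDR = 2.8e-04), and its medians were 108 CPM in MO and 19.8 CPM in PON. *GAD2* had 8.35 to 142 CPM (median 68.8) against 219 to 414 CPM (median 303) (log2FC = -2.72 ± 0.50, FDR = 0.001). *SLC32A1*, the vesicular transporter that loads GABA and glycine, had a median of 56.3 CPM in MO, between those of THA (42.9) and HTHA (96.5), and 2.19 CPM in PON (log2FC = -1.81 ± 0.61, FDR = 0.030, 7 of 8 animals). Its sums overlapped, and the call was lost without animals 2, 3 or 11 (-1.52, -1.52 and -1.74). *GABRA5*, an extrasynaptic receptor subunit, was lower in both hindbrain regions, with 21.1 to 45 CPM (median 26.3) against 141 to 189 CPM (median 171) (log2FC = -2.58 ± 0.11, FDR = 7.1e-08). *GABBR1*, a subunit of the metabotropic GABA receptor, had 288 to 440.3 CPM (median 384) against 835 to 1113 CPM (median 1054) (log2FC = -1.48 ± 0.08, FDR = 1.9e-07). It was led by THA, at a median of 1462 CPM against 662 CPM in HTHA, and was not called against the hypothalamus alone (-0.78).

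Of 32 tested genes of glutamate transport and reception 3 were higher in the hindbrain, 11 in the diencephalon and 18 were not called (median log2FC -0.64). The 3 were *SLC17A7*, the receptor *GRM8* with 46.7 to 77.8 CPM (median 58.8) against 9.59 to 18.6 CPM (median 13.7) (log2FC = 2.19 ± 0.13, FDR = 3.6e-07), and the NMDA subunit *GRIN2C* (log2FC = 1.06 ± 0.12, FDR = 4.9e-05; 0.97 without animal 10 and 0.95 with equal weights of regions). *GRM8* came from PON, at a median of 109 CPM against 23 CPM in MO. *GRIN2C* was not called with the medulla alone (0.33) or against the hypothalamus alone (0.82). Among the 11, *GRIN2D*, another NMDA subunit, and *GRM7* were lower in the hindbrain in all 4 pairs (log2FC = -2.43 ± 0.30, FDR = 7.1e-05 and log2FC = -1.58 ± 0.15, FDR = 1.4e-05). *GRM4* was carried by THA alone, at 68.5 to 95.8 CPM, with HTHA at 10.3 to 22.7 CPM and MO at 1.42 to 32.1 CPM (log2FC = -1.61 ± 0.17, FDR = 2.2e-05). Without animal 6, 10 glutamate genes were higher in the diencephalon, *GRIA2* being at -0.94. Of 29 ion channel genes 3 were higher in the hindbrain and 10 in the diencephalon, and 4 and 9 without animal 6. *KCNQ5*, an M-current channel, ranged from 207 to 347 CPM in PON and had a median of 7.14 CPM in THA (log2FC = 2.61 ± 0.29, FDR = 3.4e-05). *KCNC1*, a Kv3 channel for fast firing, was higher in the hindbrain (log2FC = 1.04 ± 0.13, FDR = 5.9e-05; 0.98 without animal 4 and 0.96 with equal weights), whereas *KCNC2*, another, was higher in the diencephalon (log2FC = -1.37 ± 0.13, FDR = 1.0e-05), where THA held 692 to 1300.2 CPM. *KCNC1* was not called with the medulla alone (0.31) or against the thalamus alone (0.77). *SCN2A*, an axonal sodium channel, was lower in the hindbrain in all 4 pairs (log2FC = -1.30 ± 0.22, FDR = 5.8e-04).

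**Figure D5:**
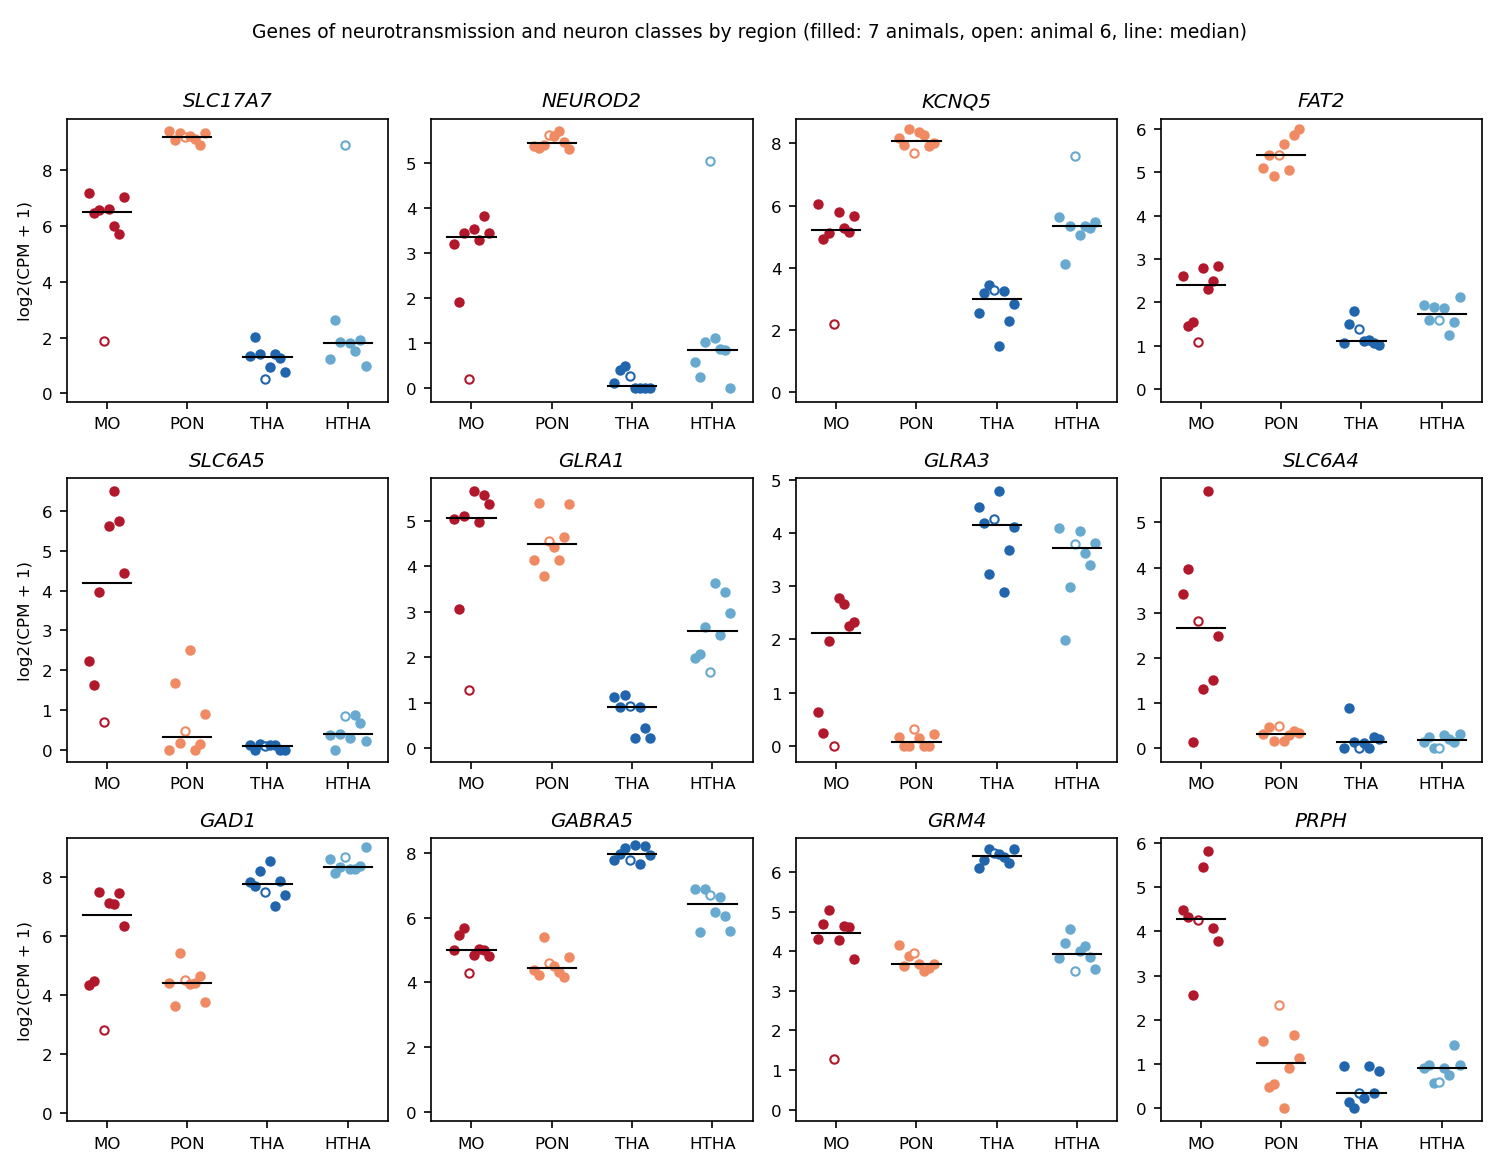
Levels of 12 genes of neurotransmission and neuron classes as log2(CPM + 1) (y axis) in MO, PON, THA and HTHA (x axis), 1 point per library, open for animal 6, with a line at the median of 8 animals. SLC17A7, NEUROD2, KCNQ5 and FAT2 were highest in PON, SLC6A5, SLC6A4 and PRPH in MO, and animal 6 lies apart in MO and HTHA for SLC17A7 and NEUROD2.

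Monoamine genes of the hindbrain came from MO and varied between animals. Of 11 tested members of the serotonin and noradrenaline list 3 were higher in the hindbrain, 1 (*TH*) in the diencephalon and 7 were not called. *SLC6A4*, the serotonin transporter, ranged from 0.0913 to 50.7 CPM in MO (median 5.32) and did not exceed 0.396 CPM in PON (log2FC = 4.94 ± 0.61, FDR = 7.2e-05; 4.12 without animal 8). *TPH2*, the enzyme of neuronal serotonin synthesis, ranged from 0.274 to 46.4 CPM in MO and did not exceed 0.336 CPM in PON, below its THA maximum of 1.81 CPM (log2FC = 2.47 ± 0.67, FDR = 0.011, 7 of 8 animals; 1.83 without animal 8, and 0.74 without a call at equal weights of regions). *DBH*, which makes noradrenaline, ranged from 0.395 to 15.3 CPM in MO and did not exceed 0.192 CPM in PON (log2FC = 3.07 ± 0.70, FDR = 0.0043, 7 of 8 animals; 3.73 without animal 6, and 1.61 without a call at equal weights). The sums of the 2 sides overlapped for all 3, and the pontine pieces held few or no reads of them. *TH*, the first enzyme of catecholamine synthesis, had a median of 10.7 CPM in HTHA and 2.72 CPM in MO (log2FC = -1.44 ± 0.46, FDR = 0.023, 7 of 8 animals), and its call was lost without animals 2, 4 or 10 (-1.36, -1.23 and -1.37).

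Of 12 tested cholinergic and motor neuron genes 5 were higher in the hindbrain, 2 (*ISL1* and *CHRNA3*) in the diencephalon and 5 were not called. *PRPH*, the intermediate filament peripherin of motor and sensory neurons, had 2.91 to 31.8 CPM (median 10.7) in the hindbrain and 0.267 to 0.939 CPM (median 0.676) in the diencephalon (log2FC = 4.21 ± 0.28, FDR = 1.1e-06), with MO at a median of 18.5 CPM. *RET*, the receptor of GDNF ligands, had 39 to 71.7 CPM (median 55.1) against 15.5 to 26.9 CPM (median 19.3) (log2FC = 1.43 ± 0.08, FDR = 2.6e-07) and was higher in PON than in MO in all 8 animals. *CHRNA3*, a nicotinic subunit, was lower in the hindbrain in all 4 pairs (log2FC = -3.40 ± 0.16, FDR = 1.1e-07). *CHAT*, which makes acetylcholine, did not pass the filter. Its means were 1.37 CPM in the hindbrain and 2.38 CPM in the diencephalon, but its medians were 0.483 and 0.349 CPM. In HTHA it reached 32.6 CPM with a median of 0.532 CPM. With the looser filter *CHAT* was tested and not called (log2FC 0.53).

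Myelin genes were higher in the hindbrain without exception among those tested. All 13 tested members of the oligodendrocyte list, of 20 in the list, were higher in the hindbrain (median log2FC 1.66), and 9 of them in all 4 region pairs. *MBP*, myelin basic protein, ranged over 19232 to 36445 CPM (median 24695) in the hindbrain and 4507 to 16929 CPM (median 6719) in the diencephalon (log2FC = 1.76 ± 0.22, FDR = 8.7e-05). *TF* (transferrin), made by oligodendrocytes in the brain and not in the list, had 1481 to 3287 CPM (median 1909.9) against 385 to 769 CPM (median 538) (log2FC = 1.92 ± 0.17, FDR = 7.8e-06). *ENPP6*, a choline phosphodiesterase of newly formed oligodendrocytes, had the largest log2FC of the 13, at 2.57 ± 0.17 (FDR = 1.1e-06). In none of *MBP*, *TF* and *ENPP6* did the 2 sides overlap. The level of the list exceeded that of the diencephalon in 8 of 8 animals by 1.73 ± 0.61 (SD) in mean log2(CPM + 1), and by 1.55 ± 0.39 in the 7 animals without animal 6. Its summed CPM ran from 31216 to 93553 in the 16 hindbrain libraries and from 3630.2 to 36698 in the 16 diencephalon libraries. The part of this difference in the other results was not tested. Precursor markers did not share it, 1 of 10 (*BCAS1*) being higher in the hindbrain and 1 (*LHFPL3*) in the diencephalon.

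Some axonal genes were higher in the hindbrain. Of 14 tested members of the neurofilament list 6 were higher in the hindbrain, none in the diencephalon and 8 were not called, and all 14 log2FC were above 0 (median 0.55). In all 4 pairs only *SPP1* was called. *NEFL*, *NEFM* and *NEFH* encode the neurofilament triplet. *NEFL* had 1981 to 3403 CPM (median 3012) in the hindbrain and 1053 to 1464 CPM (median 1261) in the diencephalon (log2FC = 1.21 ± 0.11, FDR = 1.0e-05). *NEFM* had 1779.8 to 3241 CPM (median 2392) against 724 to 1007 CPM (median 882) (log2FC = 1.51 ± 0.12, FDR = 3.6e-06). *NEFH* had 769.7 to 1455 CPM (median 1005) against 293 to 398 CPM (median 321) (log2FC = 1.64 ± 0.12, FDR = 1.8e-06). All 3 were lowest in MO of animal 6, at 117, 152 and 23.5 CPM, and were called without this animal too. MO did not differ from THA for any of the 3 at the threshold (log2FC 0.22, 0.53 and 0.63, FDR = 0.611, 0.154 and 0.156). *NEFL* and *NEFM* were not called against the thalamus alone (0.66 and 0.87), and none of the 3 with the medulla alone (0.59, 1.03 and 1.09). *SPP1* (osteopontin), found in large projection neurons, had 1044 to 1844 CPM (median 1496) against 309 to 699 CPM (median 368) (log2FC = 1.86 ± 0.15, FDR = 3.4e-06), and *ANXA2* was higher on the sums (log2FC = 1.79 ± 0.20, FDR = 3.2e-05).

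The most abundant genes higher in the diencephalon were of other kinds. *GAP43*, a growth cone and presynaptic protein, had 45.3 to 213 CPM (median 126) in the hindbrain and 733 to 1036 CPM (median 766) in the diencephalon (log2FC = -2.80 ± 0.19, FDR = 1.3e-06) and was lower in the hindbrain in all 4 pairs. *SCG2*, a granin of dense-core vesicles, had 263 to 867 CPM (median 612) against 969 to 1818 CPM (median 1339) (log2FC = -1.17 ± 0.11, FDR = 8.7e-06). Its median was 1663 CPM in HTHA and 900 CPM in THA. It was not called against the thalamus alone (-0.61) or with the pons alone (-0.95). *SLC1A3*, the glutamate transporter GLAST of astrocytes, had 207 to 531 CPM (median 365) against 669.7 to 1199 CPM (median 909.5) (log2FC = -1.41 ± 0.14, FDR = 1.3e-05), although of 16 tested astrocyte genes only 2 were higher in the diencephalon and 1 in the hindbrain. *GABBR1*, given above, was among these 6 genes as well. The other 2 had no symbol, ENSMMUG00000017852 (log2FC -1.01) and ENSMMUG00000011491 (-1.17), as had ENSMMUG00000030144 among the 6 most abundant genes higher in the hindbrain (1.44). The first fell short of the 2-fold threshold without animals 2, 4, 6 or 11 (-0.98, -0.97, -0.97 and -0.97) and with equal weights of regions (-0.92).

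A few genes were far lower in both hindbrain regions than in both diencephalic ones. *NR2E1* (tailless), a receptor of forebrain progenitors, had 12.3 to 21.5 CPM in THA, 7.59 to 33.9 CPM in HTHA and at most 1.68 CPM in MO or PON (log2FC = -5.82 ± 0.32, FDR = 2.6e-07). *LHX2*, a forebrain LIM factor, had 4.85 to 20.4 CPM (median 6.69) in the diencephalon and 0.0568 to 1.20 CPM (median 0.343) in the hindbrain (log2FC = -4.05 ± 0.48, FDR = 5.2e-05). Its highest HTHA value, 35.9 CPM, came from animal 6, against a median of 4.41 CPM. *NPTX2*, a secreted pentraxin of excitatory synapses, had 60.6 to 125 CPM (median 86.1) against 0.0399 to 10.2 CPM (median 2.74) (log2FC = -5.11 ± 0.46, FDR = 8.7e-06), with at most 0.349 CPM in PON. *GPR179* had 2.93 to 11.3 CPM (median 6.19) against 0 to 1.30 CPM (median 0.294) (log2FC = -4.29 ± 0.54, FDR = 8.4e-05; -4.98 without animal 4).

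Other cell classes differed little. By edgeR, none of 13 endothelial and mural genes, 11 fibroblast and meningeal genes and 11 immediate early genes was called in either direction. Of 9 microglial genes *TREM2* was higher in the hindbrain (log2FC = 1.04 ± 0.18, FDR = 7.9e-04), of 9 Schwann cell genes *PMP22* (log2FC = 1.08 ± 0.09, FDR = 4.6e-06) and of 15 interferon-stimulated genes *MX2* (log2FC = 1.03 ± 0.22, FDR = 0.0031), and none of these 3 passed the fold without animal 6 (0.89, 0.99 and 0.86). Both *TREM2* and *MX2* fell short with equal weights of regions (0.97 and 0.94), *TREM2* also without animal 4 (0.94), and *MX2* without animals 4, 10 or 11 (0.98, 0.999 and 0.96). *OAS1*, another interferon-stimulated gene, was called higher in the diencephalon without animal 6 (-1.05) or animal 10 (-1.04). Choroid plexus and ependymal genes were the exceptions, with 3 of 6 and 3 of 10 higher in the diencephalon, among them *OTX2*, *KL* and the dynein *DNAH9* (log2FC = -1.43 ± 0.10, FDR = 1.8e-06). No member of either list was called in all 4 pairs. *KL* was not called against the thalamus alone (-0.32) or with the medulla alone (-0.59), and *DNAH9* not against the hypothalamus alone (-0.39). The 1 tested blood gene and both tested pituitary genes were not called. No mitochondrially encoded gene was matched by symbol.

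Whether the difference between hindbrain and diencephalon itself differed between young and mid-aged animals, or between the sexes, was tested with interaction terms. With edgeR no gene passed FDR < 0.1 for age stage, with 990 genes at an unadjusted p under 0.05 and a lowest FDR of 0.105. None passed for sex either, with 1676 genes at an unadjusted p under 0.05 and a lowest FDR of 0.319. DESeq2 called 107 and 158 genes. Neither interaction was fitted without animal 6. Among the 10 lowest p-values for age stage were *GAD1*, *GAD2*, *SLC32A1* and *GLRA2*, named here after their values were seen. *GAD1* ranged from 135 to 177 CPM in MO of the 4 young animals and from 6.00 to 80.0 CPM in MO of the 4 mid-aged ones, among them animal 6. In HTHA it ranged from 306 to 324 CPM and from 275 to 509 CPM. The interaction log2FC (mid-aged minus young) of *GAD1* was -2.17 ± 0.29 (SE; edgeR FDR = 0.105, DESeq2 adjusted p = 4.0e-11). For *SLC32A1* the MO values were 78.5 to 134 CPM in young and 1.58 to 34.2 CPM in mid-aged animals (interaction log2FC -3.36 ± 0.50, edgeR FDR = 0.161, DESeq2 adjusted p = 8.2e-05). The groups of 4 did not overlap in MO for either gene. Both were picked for a low p-value of this interaction, so the separation is no support for an age difference. In animals 2 and 3, whose MO libraries held the most *CRH*, *GAD1* stood at 19.2 and 20.9 CPM in MO. The part of the position of the MO piece was not tested.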

How the data were processed

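Libraries of 4 regions from 8 macaques came from RNA depleted of ribosomal RNA. The deposited values are raw gene counts that the authors made from reads, trimmed with Trim Galore 0.4.4 where a sample had poor quality, aligned to Mmul 8.0.1 with HISAT2 2.0.5 and counted with HTSeq 0.6.1 over Ensembl 91 genes; strand and overlap options are not given in the sources used here. Symbols were taken from a table of gene names and matched 17572 of 30807 genes. The counts of MO and PON, and of THA and HTHA, were summed within an animal and tested with edgeR 4.0.16 (R 4.3.3; TMM, filterByExpr, quasi-likelihood test, animal as block), with Benjamini-Hochberg adjustment over all genes tested and calls at FDR < 0.05 and a fold above 2. Same-numbered samples come from the same animal, which is the pairing. The 4 region pairs were tested in 1 fit of 32 libraries, and interactions of side with age stage and sex at FDR < 0.1. DESeq2 1.42.0, other size factors, a looser filter, no block, equal weights of regions, single regions and the removal of each animal were alternatives. For the interactions DESeq2 was the only alternative, and no animal was left out. Fitted values at 3 or fewer counts in every sample of a side are given as bounds. Counts were also simulated without differences between animals and with changes in well-counted genes only. The median absolute fitted log2FC of the changed genes was 2.01 for the sides and 1.99 for the interaction with age stage. For the sides 196 of 200 changed genes were recovered, with 2 other calls among 15655 genes tested. For the interaction it was 185 of 200, with 18 other calls among 15627. These were counted at FDR < 0.1 and a fold above 2, whereas interactions in the data were counted without a fold limit. Recovery of smaller changes, or with animals that differ, was not tested.

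Genes named were, per direction, the 12 with the largest log2FC among symbols averaging 1 CPM or more on the higher side and differing alike in 8 animals, the 6 most abundant, the 6 with the largest smallest log2FC over the 4 pairs, and examples from lists of pathway and cell type genes. The comparison and the lists were chosen with earlier results of these data known. Each animal gave 1 piece per region, so the spread holds differences between animals and between dissections. The chromatin libraries, the assembled transcripts and the RNA libraries of other regions were not used here. A few genes that the rule or the lists would name are not reported here.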

Additional observations from a re-analysis of the deposited data

Results flagged for a closer look

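Of 92 groups of 8 values examined, 40 of named genes and 52 of marker lists by region, 10 held a value far from the other 7 by Dixon's ratio, where chance gives about 1 in 20. Animal 6 gave 8 of the 10. Its log2 ratio of hindbrain to diencephalon, on CPM + 1, was 0.60 for *SLC17A7* (5.90 to 7.70 in the other animals) and 0.84 for *NEUROD2* (3.77 to 4.63). It was -1.88 for *SCG2* (-1.29 to -0.86), -1.95 for *GABBR1* (-1.53 to -1.29) and -1.98 for ENSMMUG00000011491 (-1.18 to -0.92). In MO of animal 6, fibroblast and meningeal markers stood at a mean log2(CPM + 1) of 5.78 and cortex and telencephalon markers at 2.24, and in its HTHA the latter stood at 6.205. The remaining 2 values were of pituitary markers, at 1.12 in MO of animal 11 (0.15 to 0.53 in the others) and at 1.59 in HTHA of animal 4 (0.43 to 0.84).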

How the results depend on the processing

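The counts of genes called on the sums stayed within 1.5 times under every alternative run: 637 to 757 higher in the hindbrain and 984 to 1087 in the diencephalon when 1 animal was left out, and 719 and 1043 with DESeq2. Counts for all 4 region pairs were 185 to 203 and 144 to 210 when 1 animal was left out. Without the animal as replicate block the sums gave 708 and 981 calls and the pairs 183 and 175. The block ended the call for *HMX3*, *TAC1*, *TH* and *SLC32A1* when dropped (-1.61, -0.99, -1.09 and -1.09) and for no other gene named. With equal weights of the 4 regions the sums gave 684 and 956 calls, and 12 of the genes named lost theirs. Interactions depended on the tool, with DESeq2 calling 107 genes for age stage and 158 for sex where edgeR called 0. The pituitary list differed by -0.40 with log2(CPM + 0.1), against -0.13. Directions reversed where 1 diencephalic region stood for both: with the hypothalamus alone *RORA* was at 0.13, *PTPN3* at 0.23, *GRM4* at 0.13 and *KCNC2* at 0.71, and with the thalamus alone *SST* was at 1.94, *TAC1* at 1.35 and *TH* at 2.29. The cause of these changes was not tested. Genes with 3 or fewer counts on a side are bounded by depth.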
